A study of Mus musculus with 5 samples.

Results

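Hearts of mouse embryos at E10.5 were read on Affymetrix arrays for the genes that set the pace of glycolysis at its phosphofructokinase step. The set was named by gene symbol, with earlier results of these data known, and holds 10 genes. They are the 3 phosphofructokinase isoforms Pfkl, Pfkm and Pfkp, the 4 bifunctional regulators Pfkfb1, Pfkfb2, Pfkfb3 and Pfkfb4, the fructose bisphosphatases Fbp1 and Fbp2, and the phosphatase Tigar. Of these, 9 were named on the array, out of 23279 named genes, each by 1 probe set. The platform annotation used here leaves 1198 probe sets without a symbol and names none Pfkfb1, so no value could be assigned to that gene; whether the array reads it is not settled by this. There were 3 arrays of embryonic heart with the genotype given as control and 2 with the genotype given as knockout (KO), all from untreated tissue of the same stage. The series title names LRRFIP2, a leucine-rich repeat protein, and the response to hypoxia during heart formation. The sources used here state neither the allele, the deleted part of the gene, the strain nor the genotype of the controls, and do not tell single from pooled hearts. P-values therefore measure the spread between these 5 samples, which may in part be technical.

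Phosphofructokinase commits glucose carbon to glycolysis by adding a phosphate to fructose phosphate, and works as a tetramer built from liver (Pfkl), muscle (Pfkm) and platelet (Pfkp) type subunits. The Pfkfb enzymes make and break a second fructose bisphosphate that is no fuel but a signal: it activates phosphofructokinase and inhibits fructose bisphosphatase, which runs the reverse step of gluconeogenesis. Pfkfb3 strongly favours making this signal and is, with Pfkfb4, a known target of the hypoxia-inducible factors (HIF), while Pfkfb2 is the isoform best known from adult heart. Tigar, first described as a gene induced by p53, breaks the signal down and so favours the pentose phosphate pathway. The embryonic heart depends largely on glycolysis at this stage.

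The windows upstream of the annotated starts are shown first for the 3 genes that were higher in both knockout arrays, for Pfkfb4, the other Pfkfb gene known from hypoxia, and for Tigar, which was lower. Each holds the 250 bases before a start in RefSeq (GRCm38.p6), written in the direction of the gene. Capitals mark ACGTG and GCGTG, the core letters of the hypoxia response element, on either strand, so that a match on the opposite strand reads CACGT or CACGC. A palindromic CACGTG holds ACGTG on both strands.
Pfkfb3, upstream start (chr2:11553930-11554179, minus strand): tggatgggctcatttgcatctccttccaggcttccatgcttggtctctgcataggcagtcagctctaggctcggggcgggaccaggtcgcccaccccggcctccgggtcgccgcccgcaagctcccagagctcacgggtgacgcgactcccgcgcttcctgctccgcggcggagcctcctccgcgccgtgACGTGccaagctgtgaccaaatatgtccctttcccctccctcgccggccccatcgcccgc
Pfkfb3, downstream start (chr2:11502091-11502340, minus strand): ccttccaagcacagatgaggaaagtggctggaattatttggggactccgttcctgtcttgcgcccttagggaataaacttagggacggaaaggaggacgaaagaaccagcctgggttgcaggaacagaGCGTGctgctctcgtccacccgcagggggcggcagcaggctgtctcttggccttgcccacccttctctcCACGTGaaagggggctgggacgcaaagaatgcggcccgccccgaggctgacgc
Pfkp (chr13:6648772-6649021, minus strand): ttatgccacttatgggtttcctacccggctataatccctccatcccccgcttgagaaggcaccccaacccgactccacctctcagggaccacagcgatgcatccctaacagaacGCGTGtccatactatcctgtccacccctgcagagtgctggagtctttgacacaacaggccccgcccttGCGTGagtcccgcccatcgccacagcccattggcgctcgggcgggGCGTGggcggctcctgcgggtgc
Pfkl (chr10:78009808-78010057, minus strand): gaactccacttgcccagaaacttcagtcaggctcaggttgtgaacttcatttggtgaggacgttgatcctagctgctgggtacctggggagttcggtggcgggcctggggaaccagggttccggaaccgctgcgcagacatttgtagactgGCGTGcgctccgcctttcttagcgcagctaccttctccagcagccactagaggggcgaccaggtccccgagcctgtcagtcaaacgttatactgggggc
Pfkfb4 (chr9:108991652-108991901, plus strand): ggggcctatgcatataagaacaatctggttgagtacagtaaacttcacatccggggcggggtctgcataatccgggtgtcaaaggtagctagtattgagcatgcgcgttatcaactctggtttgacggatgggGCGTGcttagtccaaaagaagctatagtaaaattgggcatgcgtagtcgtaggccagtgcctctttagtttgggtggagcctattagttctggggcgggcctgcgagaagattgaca
Tigar (chr6:127109553-127109802, minus strand): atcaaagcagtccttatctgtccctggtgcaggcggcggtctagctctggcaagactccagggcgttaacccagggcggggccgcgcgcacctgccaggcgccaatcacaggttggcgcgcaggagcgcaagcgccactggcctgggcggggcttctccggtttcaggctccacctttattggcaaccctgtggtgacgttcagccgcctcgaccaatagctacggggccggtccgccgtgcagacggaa

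The window of the upstream Pfkfb3 start held 1 match, an ACGTG that began 60 bases before the start. That of the downstream start held 3, of which 2 were the strands of a single CACGTG. The Pfkp window held 3 matches, all GCGTG on the strand of the gene, and the windows of Pfkl and Pfkfb4 held 1 GCGTG each. The Tigar window held 0. The genes shown were picked by their values, and matches were not confined to those that were higher. A window of Pfkfb2 held 4, one of Pfkm held 2 and that of Fbp2 held 2, each with a CACGTG. The Fbp1 window held 0. Over all members, 13 of 19 windows held at least 1 match. Genes with several starts gave several windows, and some overlap, so that 1 GCGTG of Pfkm is counted in 2 windows. Of 32851 windows in the table, 38.6% held at least 1 (16.6% ACGTG, 28.2% GCGTG), so such a match is common. The matches are letters only, and binding was not measured here.

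Levels are log2 RMA values as the authors deposited them, on which 1 unit is a doubling, and differences are knockout minus control. Probe sets differ in how brightly they read the same amount of RNA, so the level of one gene is not set against that of another. Isoforms are compared by how much each differed between the groups. Genes with a mean under the 40th percentile of all genes, a level of 4.44, were called dim and not tested. This left 13967 genes, among them 6 members: Pfkl, Pfkm, Pfkp, Pfkfb2, Pfkfb3 and Tigar. Pfkfb4, Fbp1 and Fbp2 were dim.

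Lrrfip2 was read at 6.36 and 6.22 on the knockout arrays and at 7.33, 8.07 and 8.08 on the control arrays, so its values ran with the labels. Whether its probe set lies in the deleted part is not known. Cardiomyocyte genes were bright on all arrays, with a median level of the 11 markers between 12.07 and 12.20. Their median shift was -0.02 on the first and -0.15 on the second knockout array, with -0.0074 to -0.00076 on the control arrays. Without overlap between the groups, 5 of the 11 were lower and 1 higher, against 13.1% lower and 8.18% higher of all genes tested. At an unadjusted p under 0.05 in limma 2 were lower, Tnnc1 (-0.14) and Myh6 (-0.22), against 5.49% of all genes. These names were picked after their values were seen. Genes of liver and gut endoderm were read brightly in knockout replicate 2 alone. The 13 markers of this kind named on the array were shifted there by a median of 3.72, against -0.03 to 0.03 on the other 4 arrays. The log2 of their summed level was 12.93 there, 8.44 in knockout replicate 1 and 8.42 to 8.50 in the controls. Afp was at 11.42 on that array and Fgb at 8.46. On knockout replicate 1, the median shift was 0.40 for markers of endothelium and endocardium (controls -0.16 to 0.11). For those of macrophages it was 0.27 (controls -0.00091 to 0). Members of both lists disagreed there: Pecam1 (9.34) and Fcgr3 (5.59) lay above all controls, Nfatc1 (6.69) below and Cd68 (6.45) among them. These 4 names were picked after their values were seen. Epicardial markers were shifted by -0.19 on that array and by 0.31 on knockout replicate 2 (controls -0.21 to 0.15). Fits without each array, and with the endoderm or erythroid level as a covariate, are given with the results or in the closing section on processing. The part of the other cell types was not tested.

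**Figure D1:**
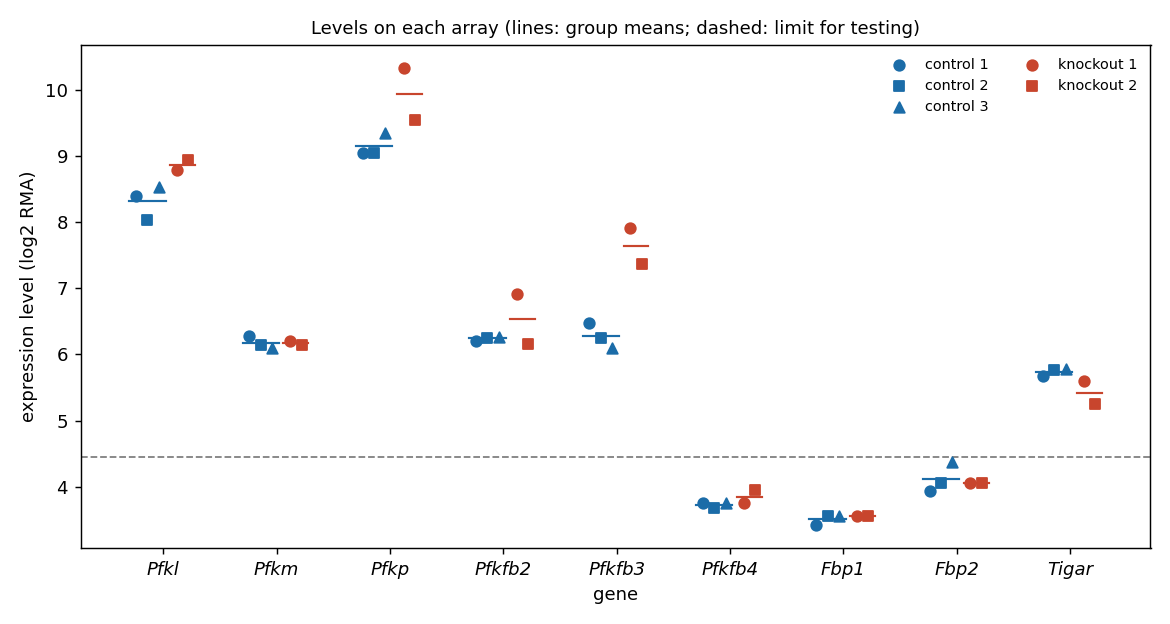
Expression level (log2 RMA) of the 9 genes on each of the 5 arrays, with blue symbols for the 3 control and red for the 2 knockout arrays; short lines are group means and the dashed line is the level of 4.44 below which genes were not tested. Pfkfb3, Pfkp and Pfkl lie higher on both knockout arrays than on any control array, Tigar lies lower, and the other genes overlap.

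Pfkfb3 had the largest difference of the set. It was read at 7.91 on the first and 7.37 on the second knockout array, and at 6.48, 6.26 and 6.10 on the 3 control arrays. Both knockout values lay above all controls, with a gap of 0.90 between the groups that exceeded the whole range of the controls (0.38). The difference was 1.36 ± 0.21 (SE), a 2.57-fold higher level. It had an unadjusted p of 0.00291 in limma, rank 110 among the genes tested, and an adjusted p of 0.355. Only 0.422% of tested genes had a larger absolute difference. Leaving out any 1 array kept the difference between 1.09 and 1.63.

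Pfkl and Pfkp were higher too, by less. Pfkl, the liver type subunit, read 8.79 and 8.95 on the knockout and 8.40, 8.04 and 8.54 on the control arrays. The groups did not overlap, but the gap of 0.25 was smaller than the range of the controls (0.50). The difference was 0.54 ± 0.18 (SE), with an unadjusted p of 0.0368 and an adjusted p of 0.541 in limma. The unadjusted p was 0.0821 without control replicate 1, 0.109 without knockout replicate 1 and 0.187 without knockout replicate 2. Pfkp, the platelet type subunit, was at 10.34 and 9.55 in the knockout arrays against 9.05, 9.05 and 9.34 in the controls. Here knockout replicate 1 stood well above and knockout replicate 2 only 0.21 above the highest control. The Pfkp difference was 0.80 ± 0.28 (SE), 1.74-fold, with an unadjusted p of 0.0447 and an adjusted p of 0.552. It was 0.40 without knockout replicate 1, the array with higher list medians of endothelial and macrophage markers, and 1.19 without knockout replicate 2. Without any 1 of the control arrays its unadjusted p was 0.0793 to 0.127.

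Pfkm, the muscle type subunit, showed no separation. The knockout arrays read 6.20 and 6.14 and the controls 6.28, 6.14 and 6.10. The difference was -0.01, with a 95% interval from -0.20 to 0.19 (limma), so a shift as large as that of Pfkl or Pfkp lies outside the interval. The sign of so small a value turned when knockout replicate 2 or control replicate 1 was left out.

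Pfkfb2 differed between the knockout arrays themselves. The first knockout array read 6.92 and the second 6.16, on either side of the controls at 6.20, 6.25 and 6.27. The difference of 0.30 ± 0.25 (SE) had an unadjusted p of 0.293 and an adjusted p of 0.608 in limma. Leaving out knockout replicate 2 gave 0.68 (adjusted p = 0.0308), a fit that takes the remaining knockout array to vary like the controls. Without knockout replicate 1 it was -0.08.

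Tigar, the phosphatase that opposes Pfkfb3, was lower in both knockout arrays. Its level was 5.59 and 5.24 there and 5.67, 5.76 and 5.79 in the controls. The groups were separated by 0.08, less than the range of the controls (0.11). The difference was -0.32 ± 0.12 (SE), with an unadjusted p of 0.0567 and an adjusted p of 0.570 in limma. Most of it came from knockout replicate 2, the array with endoderm transcripts: the difference was -0.15 without that array and -0.50 without knockout replicate 1.

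The dim genes gave little to compare. Pfkfb4 read 3.75 and 3.95 on the knockout arrays against 3.75, 3.67 and 3.75 in the controls, and 3 of the 5 arrays held an identical value. Fbp1, the liver type bisphosphatase, had the same value of 3.55 on 4 arrays and 3.41 in control replicate 1. Fbp2, the muscle type, was at 4.05 on both knockout arrays and at 3.93, 4.05 and 4.37 in the controls. Such ties were common in the deposited values, with 54.8% of tested genes holding an equal value on at least 2 arrays. A dim probe set does not show that the RNA is absent. The probe sets of aldolase, Aldoa (4.18 in control replicate 1), and of phosphoglycerate mutase, Pgam1 (3.92), were dim as well; these genes were picked after their values were seen. Pfkfb4 lies on chromosome 9 like Lrrfip2, with 56 protein-coding genes between them in the RefSeq table, and Fbp1 and Fbp2 are neighbours on chromosome 13.

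Counted together, 4 of the 6 tested members had higher and 2 had lower levels in the knockout. At an adjusted p under 0.05 in limma there were 0, as for all genes tested (0%). An unadjusted p under 0.05 was reached by 3, each with a higher level, but by only 1 with a higher level without control replicate 1 or without knockout replicate 1. Over all genes, 8.78% reached that value, 3.29% with higher and 5.49% with lower levels. The groups did not overlap for 4 members, 3 higher and 1 lower, against 21.3% of all genes (8.18% higher and 13.1% lower). For 2 of them, Pfkfb3 and Pfkp, the fold was at least 1.5 as well, against 2.52% of all genes. With 6 genes such counts are descriptions.

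**Figure D2:**
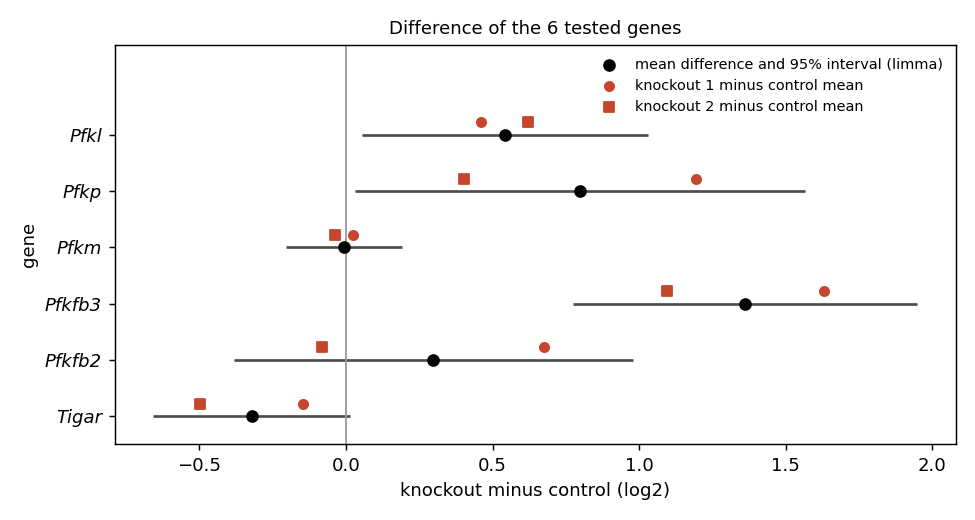
Knockout minus control (log2) for the 6 tested genes, with black points for the mean difference, bars for its 95% interval in limma and red symbols for each knockout array against the control mean. The interval of Pfkfb3 starts at 0.78, those of Pfkl and Pfkp lie just above 0, and those of Pfkm, Pfkfb2 and Tigar include 0.

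The isoforms were compared with each other through their log2 difference within each array, which cancels what an array does to both genes alike. There were 7 pairs, of which 3 hold a dim gene (Pfkfb4, Fbp1 or Fbp2) and are not read further. The pairs were tested by an exact two-sided permutation over the 10 splits of the arrays. With 2 arrays against 3 no p can fall below 0.1, so this design cannot reach 0.05, and after adjustment over the 7 pairs the smallest value was 0.233.

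Among the phosphofructokinases, Pfkp and Pfkl were both higher relative to Pfkm on both knockout arrays than on any control array. Pfkp minus Pfkm was 4.14 and 3.42 in the knockout arrays against 2.77, 2.91 and 3.24 in the controls, a difference between the groups of 0.80 ± 0.33 (SE; exact permutation p = 0.1). Pfkl minus Pfkm was 2.59 and 2.81 against 2.12, 1.90 and 2.44, a difference of 0.55 ± 0.22 (SE; exact permutation p = 0.2). The groups did not overlap for either pair, but in both the gap between them was smaller than the range of the controls. Between Pfkp and Pfkl no order could be given. Pfkp minus Pfkl was 1.55 and 0.60 on the knockout arrays, around 0.65, 1.01 and 0.81 in the controls. Its change of 0.26 ± 0.38 (SE; exact permutation p = 0.7) became -0.22 without knockout replicate 1.

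Among the Pfkfb genes, Pfkfb3 was higher relative to Pfkfb2. Pfkfb3 minus Pfkfb2 was 0.99 and 1.21 on the knockout arrays against 0.27, 0.01 and -0.17 in the controls, a difference of 1.06 ± 0.19 (SE; exact permutation p = 0.1). This relative level was high on both knockout arrays, while Pfkfb2 itself was high on the first only.

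**Figure D3:**
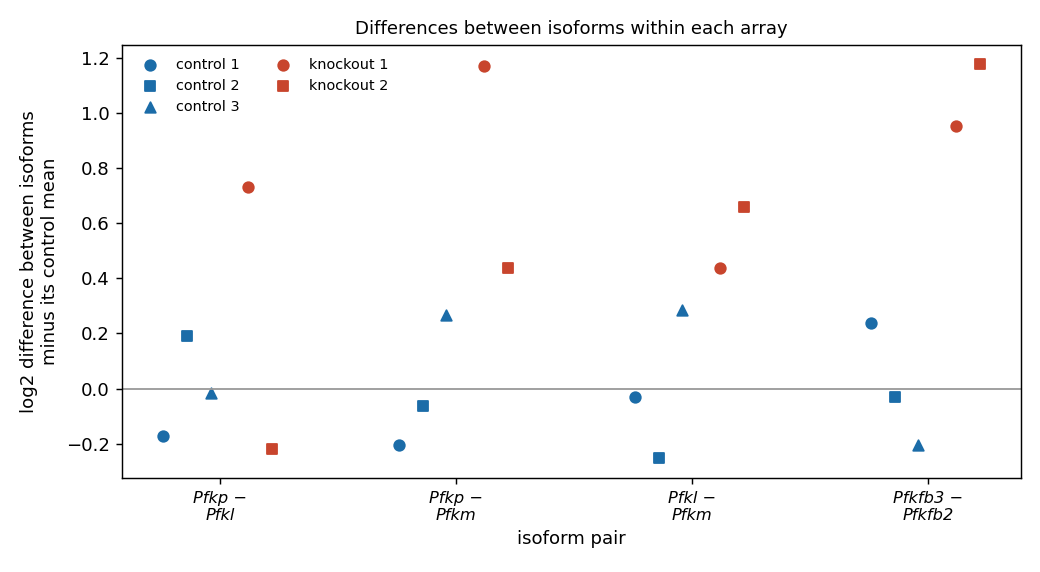
Log2 difference between 2 isoforms on each array, minus its mean over the controls, for the 4 pairs of tested genes; blue symbols are the 3 control and red the 2 knockout arrays. In 3 of them, Pfkp or Pfkl against Pfkm and Pfkfb3 against Pfkfb2, both knockout arrays lie above all controls.

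Around this step, the genes that bring glucose in and trap it ran the same way. The list of glucose entry and upper glycolysis was chosen with earlier results of these data known. Its median difference was 0.97, against -0.02 over all genes. Over its 6 named genes, dim ones included, the median shift was 0.83 on the first and 0.51 on the second knockout array. Of its 5 tested genes, 4 were higher at an unadjusted p under 0.05 (limma), against 3.29% of all genes. These were the transporter genes Slc2a3 (1.56) and Slc2a1 (0.31), hexokinase Hk2 (0.97) and the aldolase Aldoc (1.21), and the groups did not overlap for any of them. Hk1, picked after its value was seen, was at -0.19. Below the step, the list of lower glycolysis had a median of 0.08, with 5 of 9 tested genes higher and 2 of them, Tpi1 (0.31) and the pyruvate kinase gene Pkm (0.32), at an unadjusted p under 0.05. Ldha was at 0.27 and Eno2 at 0.67.

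The list of HIF targets outside glycolysis gave the scale of the hypoxia genes. It was chosen with earlier results of these data known, so its counts are descriptions. All 16 were higher, with a median of 1.36. An unadjusted p under 0.05 (limma) was reached by 15, against 3.29% of all genes with a higher level at that p. After adjustment 0 of the 16 passed. Those with the smallest p were Adm (1.48), Ndrg1 (2.37), Egln1 (0.85) and P4ha1 (1.12). Their median shift was 1.51 on the first and 1.28 on the second knockout array, where Pfkfb3 was shifted by 1.63 and 1.09. For Pfkp these shifts were 1.19 and 0.40, and for Pfkl 0.46 and 0.62.

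**Figure D4:**
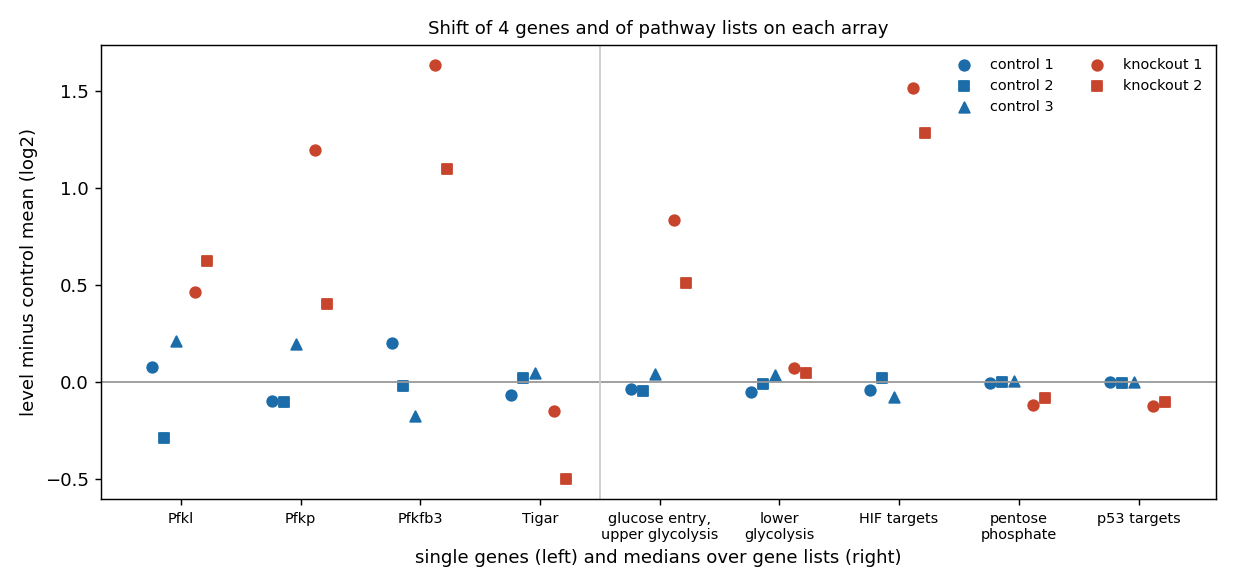
Level minus the control mean (log2) on each array for Pfkl, Pfkp, Pfkfb3 and Tigar (left) and as the median over the named genes of 5 lists, dim ones included (right), with blue symbols for control and red for knockout arrays. Pfkfb3 is shifted by 1.63 and 1.09 in the knockout arrays, near the HIF targets at 1.51 and 1.28, while the lists of lower glycolysis, the pentose phosphate pathway and p53 targets lie between -0.12 and 0.07 there.

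Lower levels were the more common direction over the array, with 7712 of 13967 tested genes lower. On the side that Tigar serves, the pentose phosphate list had a median of -0.22, with 5 of 7 tested genes lower. Over its 8 named genes, dim ones included, the median shift was smaller, -0.12 on the first and -0.08 on the second knockout array. A link to Tigar was not tested. Rpe (-0.22) and the transaldolase gene Taldo1 (-0.26) were lower at an unadjusted p under 0.05 in limma, against 5.49% of all genes. With Rpia (-0.29), 3 of the 7 were lower without overlap, against 13.1% of all genes. The transketolase gene Tkt was at 0.27. Of 10 tested p53 targets, 7 were lower, with a median of -0.16. Over the 11 named ones the median shift was -0.12 on the first and -0.10 on the second knockout array. Sesn2 (0.92) was higher and Ccng1 (-0.47) lower at an unadjusted p under 0.05 (limma), 1 gene each way. Over all genes 3.29% were higher and 5.49% lower at that p. Perp was at -0.45 and Zmat3 at -0.21. Sesn2 is also induced by other stress pathways. Genes of gluconeogenesis had a median of 0.06. Of its 5 tested members, 2 were higher at an unadjusted p under 0.05 (limma), against 3.29% of all genes. These were Slc37a4 (0.58), the transporter of glucose phosphate into the endoplasmic reticulum, and the mitochondrial Pck2 (0.69). Pcx was at 0.06 and Pck1 at -0.06.

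The lists chosen around the control of the Pfkfb enzymes had small median shifts, while single genes differed by more. AMPK, the energy-sensing kinase that can phosphorylate Pfkfb2 and Pfkfb3, has 7 subunit genes, of which 6 were lower with a median of -0.10. The gamma subunits Prkag2 (-0.30) and Prkag1 (-0.36) were lower at an unadjusted p under 0.05 in limma, against 5.49% of all genes. Prkab2 (0.75) did not reach that p but was higher without overlap, as were 8.18% of all genes. Prkag3 was at -0.10. Of 11 tested genes for other kinases, a cyclin and factors that mark Pfkfb3 protein for breakdown, 10 were lower with a median of -0.23. Mapkapk2 (-0.26), 1 of the 11, was lower at an unadjusted p under 0.05 in limma, against 5.49% of all genes. Akt1 (-0.35), Prkaca (-0.55) and Akt2 (-0.24) did not reach it. The list was shifted by a median of -0.38 on the first knockout array and of -0.05 on the second, so its median rests mostly on the first.

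The genes with the profile most like each member were taken by the root mean square difference over the 5 arrays of the level minus the control mean. For Pfkfb3 they were Aox4 (0.11), the mitophagy receptor gene Bnip3 (0.11) and Aldoc (0.12). For Pfkp they were Bnip3l (0.07), the long noncoding RNA Neat1 (0.09) and the mitochondrial protease gene Lonp1 (0.10). Pfkl was left out because its fold was under 1.5. With 5 arrays such a likeness is a description. In whole hearts, fewer cells of a type and less RNA per cell cannot be told apart.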

How the data were processed

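Total RNA of 5 embryonic heart samples, extracted with Trizol, was amplified and labelled for Affymetrix arrays, per the labels' protocols. The deposited values are log2 levels that the authors made with Affymetrix Expression Console and RMA, per the submitters' processing notes, without stated versions. RMA corrects background, equalises the arrays and summarises probe sets; no scanner values were used, and precision is limited by how few arrays there are. Array medians were 5.07 to 5.11.

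Of 24479 probe sets, 23281 had 1 gene symbol and 1198 none in the platform annotation; 23156 were found in RefSeq (GRCm38.p6), which gave symbols and gene order. The brightest set was kept per gene. Knockout was compared with control in limma 3.58.1 (R 4.3.3; lmFit, eBayes, two-sided, no covariate) over 13967 genes, with Benjamini-Hochberg adjustment and a threshold of 0.05. The steps were tested on simulated data. Gene lists were counted, not tested. Upstream windows came from RefSeq.

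By rule, all members, Lrrfip2 and up to 4 genes of each pathway list with the smallest p were named. The rule also took up to 3 markers of a list that stood out on 1 array. It took the 3 nearest profiles of members with no overlap and a fold of at least 1.5 as well. Other genes are marked as picked after their values were seen. Members and lists were chosen with earlier results of these data known. Alternatives concerned the dim filter, variance prior, array weights, normalization, probe sets, covariates and leaving out each array.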

Additional observations from a re-analysis of the deposited data

How the results depend on the processing

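The directions of Pfkl, Pfkp, Pfkfb3 and Tigar held in all 15 alternatives, but many of these could not have turned them. The choice of dim filter, variance prior or mean of probe sets left each of these differences as it was, but not each p. In limma the unadjusted p of Pfkp was 0.0513 without the dim filter, and that of Pfkl was 0.114 with array weights. Either setting left 2 members higher at an unadjusted p under 0.05, against 3 in the main fit. Leaving out 1 array cannot reverse groups that do not overlap. The unadjusted p of Pfkfb3 in limma was 0.00105 to 0.0175 over the 15 alternatives. The p of Pfkl was 0.00334 to 0.187, that of Pfkp 0.00745 to 0.127 and that of Tigar 0.00607 to 0.152. Fits without a knockout array, which are within these ranges, take the remaining one to vary like the controls. So does the fit with the endoderm covariate, which is high on knockout replicate 2 alone and in effect sets that array aside. With the endoderm covariate the difference was 0.46 for Pfkl, 1.19 for Pfkp, 1.62 for Pfkfb3 and -0.15 for Tigar. Without knockout replicate 2 these were 0.46, 1.19, 1.63 and -0.15. With the erythroid covariate these were 0.73, 0.85, 1.26 and -0.33, and 2 members were higher at an unadjusted p under 0.05 (limma). Pfkm turned to 0.022 with the endoderm covariate. It ranged from -0.043 to 0.048 without 1 array, turning without control replicate 1 or knockout replicate 2. Pfkfb2 ranged from -0.082 to 0.677 in the latter fits, turning without knockout replicate 1.

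With the level of the endoderm markers as a covariate, 856 genes passed after adjustment and 1 member did, Pfkfb2 (0.67). As that level is high on knockout replicate 2 alone, this fit nearly repeats the one without that array (Pfkfb2 0.68). Its calls rest in effect on 1 knockout array, so the part of endoderm was not tested by it. Leaving out 1 array gave 0 to 1011 genes, and 0 to 1 members after adjustment, 1 to 3 higher and 0 to 1 lower at an unadjusted p under 0.05, and 3 to 4 higher and 1 to 2 lower without overlap.

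Leaving out 1 array moved the pairs as follows. Pfkp minus Pfkl ranged from -0.22 to 0.73, reversed without knockout replicate 1 (-0.22), and Pfkfb2 minus the dim Pfkfb4 from -0.30 to 0.65, reversed without that array (-0.30). No alternative reversed the other 5 pairs.

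List medians moved by more than the controls varied as follows. With dim genes kept, or filtered at the 20th percentile, upper glycolysis was at 0.64, the pentose phosphate list at -0.20 and p53 targets at -0.13. With the endoderm covariate, upper glycolysis was at 1.19, gluconeogenesis at 0.017, the pentose phosphate list at -0.17, HIF targets at 1.51 and the Pfkfb kinases and degradation factors at -0.38. With the erythroid covariate the latter were at -0.14 and the pentose phosphate list at -0.19. Array weights, quantile normalization and median centring gave -0.21, -0.19 and -0.23 for the pentose phosphate list, -0.17, -0.15 and -0.17 for p53 targets, and -0.20, -0.22 and -0.25 for the Pfkfb kinases. Leaving out 1 array gave 0.75 to 1.19 for upper and 0.0063 to 0.15 for lower glycolysis, 0.016 to 0.18 for gluconeogenesis, -0.23 to -0.14 for the pentose phosphate list, 1.28 to 1.51 for HIF targets, -0.17 to -0.11 for p53 targets and -0.38 to -0.053 for the Pfkfb kinases. No list changed sign. Where it was not the number of genes or arrays that differed, the cause was not tested.

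No paired analysis was possible because the sample numbers in the labels are not shared between the groups. Signal over background could not be judged without scanner values, so dim genes such as Pfkfb4 carry no statement on presence.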

Other observations

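The gluconeogenesis list had a median shift of 0.14 in knockout replicate 2, the array with endoderm transcripts, and of 0.02 in knockout replicate 1, against -0.01 to 0.02 in the controls. G6pc3, the broadly expressed glucose phosphatase subunit, was at 8.31 in knockout replicate 2 and at 8.06 to 8.17 elsewhere, and Pcx was at 5.19 there against 5.04 to 5.13. Slc37a4 and Pck2 ran the other way, at 7.06 and 6.59 in knockout replicate 1 and at 6.65 and 6.19 in knockout replicate 2. Pck1 held 1 value, 4.46, on 4 arrays, both knockout arrays among them. Fbp1 and the liver subunit gene G6pc were dim and carry no statement. G6pc3 and G6pc were picked after their values were seen.

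Pklr, the pyruvate kinase gene shared by liver and red cells, ranged over the controls alone from 4.73 to 7.02, with 4.79 and 5.15 in the knockout arrays. The primitive erythroid markers ranged in the same way: the control with the highest Pklr also had the highest Slc4a1, at 9.34 against 6.82 and 7.83 in the other controls. Pklr and Slc4a1 were picked after their values were seen.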
